A study of Homo sapiens with 4 samples.

Results

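The genes described here are 10 factors and targets of the YAP/TAZ pathway, taken from the 18882 genes listed in RNA-Seq libraries of the breast cancer cell line BT-474: YAP1, WWTR1, TEAD1, TEAD3, TEAD4, CCN1 (CYR61), CCN2 (CTGF), ANKRD1, AMOTL2 and AJUBA. They were matched by name, through the NCBI Gene ID of each symbol, and no measured value enters that match. The members were, however, chosen with earlier results of these data known, so their shares beside all genes are descriptive. Of the 10 genes, 9 had enough reads to be tested and ANKRD1 did not. BT-474 is an established luminal B-like, HER2-amplified line. The control BT-474 cells were wild-type (2 libraries, replicates 1 and 2), and the BT-474 NRP-1 cells (2 libraries, replicates 2 and 3, numbered as in the labels) were stably transfected with a pPTuner IRES2 plasmid that expresses Neuropilin-1, a co-receptor for semaphorins and VEGF. Transfected clones were picked as colonies and selected with Geneticin, and all cells were grown in RPMI-1640 with serum. The sources used here do not say whether the 2 libraries of a group came from separate cultures or clones, so the p-values measure only the spread between these libraries. Cell density at harvest is not given either, and the controls are labelled wild-type, not as carrying the empty vector.

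YAP1 and TAZ (the product of WWTR1) are transcriptional co-activators with no DNA-binding domain of their own. When the Hippo kinases MST and LATS are active, as in dense epithelial sheets with mature junctions, YAP1 and TAZ are phosphorylated and held in the cytoplasm or degraded. When cells spread on a stiff matrix or lose their neighbours, both enter the nucleus and bind TEAD factors, which recognise the DNA letters GGAATG and drive CCN1, CCN2, ANKRD1 and AMOTL2. The activity of YAP1 and TAZ is set largely by phosphorylation and location, which RNA levels do not measure, while the RNA of their targets is a common readout of that activity.

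The libraries held from 8243595 to 8448926 expected counts, the estimated number of reads per gene. NRP1 was measured at 0.918 ± 0.0785 CPM (reads scaled to a common library size; SD, n = 2) in control cells and at 9.70 ± 3.42 CPM (SD, n = 2) in the overexpressing cells, a log2 fold change of 3.38 (SE, the standard error, 0.42, edgeR adjusted p = 0.044). All 8 luminal markers were detected, with summed FPKM (reads scaled by transcript length and library size) from 4233 to 4235 in control cells and from 4561 to 5221 in the overexpressing cells. The sums rested mainly on ERBB2, KRT8, KRT18 and KRT19, each at 611 FPKM or more in every library. Among the 8 markers, GATA3 had 184 and 186 reads in the controls against 688 and 289 in the NRP-1 libraries. ESR1, the estrogen receptor, had 395 and 437 reads against 273 and 735, and PGR had 702 and 717 against 419 and 1138. EPCAM lay lower in both NRP-1 libraries, at 161 and 169 FPKM in the controls against 139 and 134 FPKM. The 3 basal markers summed to at most 1.91 FPKM, with KRT14 at 0 reads in each library, and among the 6 fibroblast markers PDGFRB and DCN were at 0 while COL1A1 alone had a mean of 35.1 FPKM in the controls and 28.5 FPKM in the NRP-1 libraries. The 2 endothelial markers summed to at most 1.34 FPKM. The part of these marker levels in the results below was not tested. The NRP-1 libraries differed from each other more than the control libraries did. Over 10379 genes above 10 CPM, the median absolute log2 difference was 0.25 between NRP-1 replicates 3 and 2 and 0.11 between the control replicates. In bulk RNA, a smaller share of cells that express a gene and less RNA per cell cannot be told apart.

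TEAD1 rose in BT-474 NRP-1 cells, to 2.19-fold the control level, and was the one member that passed the test, while YAP1, WWTR1, TEAD3 and TEAD4 did not pass it. Among the targets, AMOTL2 and CCN1 lay below both controls in each NRP-1 library without passing the test. CCN2 had no common direction in the NRP-1 libraries, and ANKRD1 was almost without reads. The quasi-likelihood test of edgeR, adjusted by Benjamini-Hochberg over 14298 genes, called 1 of the 9 tested members at an adjusted p under 0.05, beside 1.09% of all genes tested. The 1 called member was higher, as 0.413% of all genes were, and 0 members were called lower, as 0.678% of all genes were. At an unadjusted p under 0.05 there were 2 higher members (TEAD1 and AJUBA) and 2 lower ones (CCN1 and AMOTL2), beside 22.9% of all genes in either direction. Of the 9 members, 3 lay above both controls in each NRP-1 library (27.9% of all genes did) and 2 below (28.3% of all genes), so that 5 did not overlap (56.2% of all genes) and the other 4 overlapped. The median log2 fold change was 0.23 over the 9 members and 0.02 over all genes tested. With an NRP-1 library left out, the member median came to 0.02 (replicate 2) or 0.002 (replicate 3). With a control library left out, it came to 0.17 (replicate 1) or 0.10 (replicate 2). For 2 libraries on each side the smallest two-sided p of an exact permutation test is 0.333, and the p-values below therefore come from the fit across all genes.

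**Figure D1:**
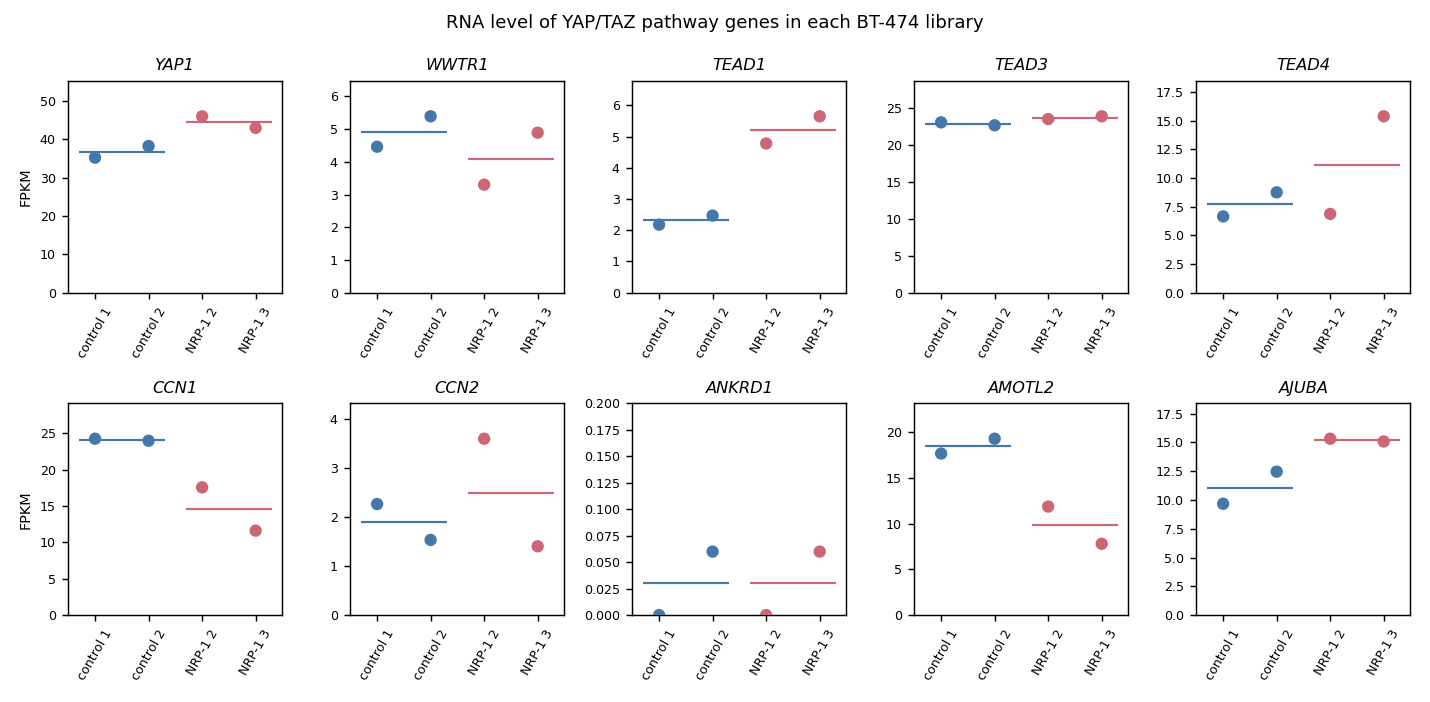
FPKM of each of the 10 genes (vertical axis, from 0, a scale of its own in each panel) in the 4 libraries (horizontal axis). Points are libraries and lines are group means. TEAD1 lay at 4.78 and 5.65 FPKM in the NRP-1 libraries, above 2.18 and 2.47 in control cells, while CCN1 and AMOTL2 lay below their controls.

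The co-activators were first compared by their level per length. YAP1 had 35.2 and 38.3 FPKM in control replicates 1 and 2 and 46.0 and 43.0 FPKM in NRP-1 replicates 2 and 3, which placed it above 88.7% to 91.5% of the listed genes. Both NRP-1 libraries thus lay above both controls, at 121% and 114% of the control mean in CPM. The log2 fold change of YAP1 was 0.23 (SE 0.12, edgeR adjusted p = 0.308). It was 0.28 without NRP-1 replicate 3, in a range over all alternatives from 0.17 to 0.30. WWTR1, which encodes TAZ, had 4.46 and 5.39 FPKM in the controls and 3.30 and 4.89 FPKM in the NRP-1 libraries. Only NRP-1 replicate 2 lay below the controls, and NRP-1 replicate 3 lay between them. WWTR1 had a log2 fold change of -0.30 (SE 0.24, edgeR adjusted p = 0.512). The estimate moved to -0.04 without NRP-1 replicate 2, whereas it was -0.61 when replicate 3 was left out. The FPKM of YAP1 was 7.90 and 7.10 times that of WWTR1 in the controls against 13.9 and 8.79 times in the NRP-1 libraries, so that YAP1 was the more abundant transcript per length in every library.

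The TEAD factors carry the DNA-binding domain of the complex and differ from each other mainly in where they are expressed. TEAD1 had 172 and 196 reads in the controls against 383 and 456 in the NRP-1 libraries. In CPM this was 22.5 ± 1.88 (SD, n = 2) against 49.3 ± 6.02 (SD, n = 2), and the groups did not overlap. On the log2 scale TEAD1 differed by 1.13 (SE 0.17, edgeR adjusted p = 0.0497). This value lies just under the threshold of 0.05, and TEAD1 ranked at 154 by p among the 156 genes called. Its estimate lay between 0.90 and 1.24 across all alternatives. TEAD1 lost the call without control replicate 1 (adjusted p = 0.802), without control replicate 2 (adjusted p = 0.611), without a filter on low counts (adjusted p = 0.113) and with limma on log2(FPKM + 1) (adjusted p = 0.109) or on log2(FPKM + 0.1) (adjusted p = 0.107).

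TEAD3 had 578 and 572 reads in the controls against 599 and 613 in the NRP-1 libraries, at 22.9 ± 0.283 FPKM (SD, n = 2) against 23.7 ± 0.262 FPKM (SD, n = 2). Scaled by TMM the libraries overlapped, at a log2 fold change of 0.02 (SE 0.12, edgeR adjusted p = 0.953), the smallest among the 9 tested members. TEAD4 had 98.2 and 130 reads in the controls against 103 and 230 in the NRP-1 libraries. NRP-1 replicate 2 lay within the control range, and NRP-1 replicate 3 reached 194% of the control mean in CPM. TEAD4 had an estimate of 0.49 on the log2 scale (SE 0.40, edgeR adjusted p = 0.508). That estimate became 0.94 with NRP-1 replicate 2 left out and -0.20 with replicate 3 left out. TEAD2, the remaining paralog, had 304 and 350 reads in the controls against 455 and 432 in the NRP-1 libraries (log2 fold change 0.38, standard error 0.14, adjusted p = 0.19, edgeR).

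Per length, TEAD1 was a minor part of the family in every library. It made up 4.46% and 4.64% of the summed FPKM of the 4 TEAD genes in the controls against 8.0% and 8.30% in the NRP-1 libraries. TEAD3 made up 47.2% and 42.5% in the controls against 39.4% and 35.1% in the NRP-1 libraries. The share of TEAD3 was thus lower, and that of TEAD1 higher, in each NRP-1 library than in either control, while the shares of TEAD2 and TEAD4 overlapped. The summed FPKM of the family was 48.9 and 53.3 in the controls against 59.7 and 68.1 in the NRP-1 libraries. No test was made on these shares, which are not independent of each other.

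**Figure D2:**
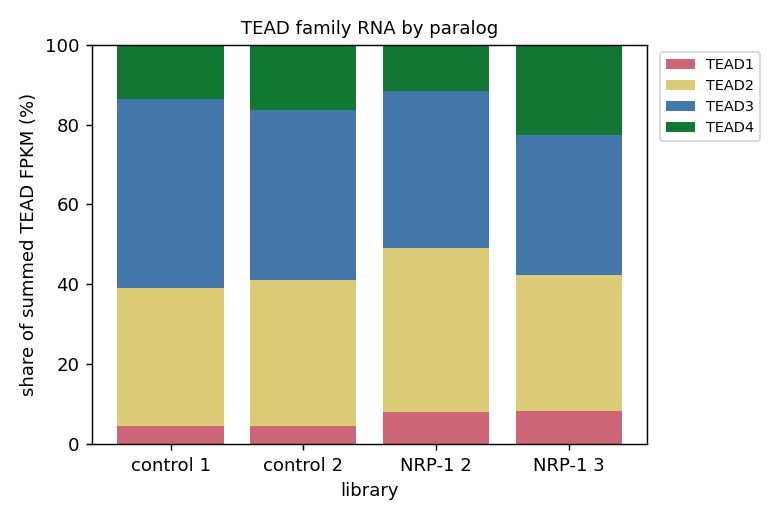
Share of each TEAD gene in the summed FPKM of TEAD1 to TEAD4 (vertical axis, percent), as stacked bars for the 4 libraries. TEAD1 went from 4.46% and 4.64% in the control libraries to 8.0% and 8.30% in the NRP-1 libraries, and TEAD4 reached 22.6% in NRP-1 replicate 3 alone.

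The letters to which TEAD factors bind were looked for in the promoters of the members, in the 250 bases before each start of transcription, from the RefSeq promoter table of GRCh38.p14. The table matched 7 of the 10 members with 10 windows (YAP1, TEAD3, CCN2 and ANKRD1 with 1 each, and WWTR1, AMOTL2 and AJUBA with 2 each). GGAATG, or CATTCC on the other strand, was in 5 of the 10 windows, and in 11.9% of the 35116 windows of the table. It occurred 3 times before CCN2, 2 times before ANKRD1 and once each before YAP1, AMOTL2 and AJUBA. The 3 windows of target genes with the letters are shown 5′ to 3′ on the strand of the gene, with GGAATG or CATTCC in capitals, since these genes are the targets whose levels are described next.
CCN2, chr6:131951373-131951622, - strand: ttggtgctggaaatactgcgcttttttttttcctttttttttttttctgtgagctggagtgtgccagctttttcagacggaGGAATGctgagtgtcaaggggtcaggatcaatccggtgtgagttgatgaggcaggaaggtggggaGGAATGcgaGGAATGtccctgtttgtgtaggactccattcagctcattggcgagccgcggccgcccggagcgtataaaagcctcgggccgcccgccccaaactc
ANKRD1, chr10:90921088-90921337, - strand: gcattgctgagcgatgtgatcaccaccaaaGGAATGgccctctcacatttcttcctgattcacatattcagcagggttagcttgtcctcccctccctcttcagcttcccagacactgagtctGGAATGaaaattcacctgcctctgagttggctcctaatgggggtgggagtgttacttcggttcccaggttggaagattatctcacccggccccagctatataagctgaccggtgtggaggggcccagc
AMOTL2, chr3:134374448-134374697, - strand: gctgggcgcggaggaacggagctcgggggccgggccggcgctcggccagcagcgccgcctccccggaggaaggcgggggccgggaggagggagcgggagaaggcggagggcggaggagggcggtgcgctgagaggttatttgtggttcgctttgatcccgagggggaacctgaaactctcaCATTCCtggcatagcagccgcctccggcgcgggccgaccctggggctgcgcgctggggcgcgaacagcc

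Before CCN2 the matches began 169, 104 and 95 bases ahead of the start, before ANKRD1 220 and 128 bases ahead, and before AMOTL2 69 bases ahead, on the other strand. The letters TGANTCA, a loose form of the AP-1 site with any base at N, were in 1 of these windows, that of ANKRD1. They were in 6.57% of all windows. The match before ANKRD1 was TGATTCA, so the usual AP-1 sites TGACTCA and TGAGTCA were absent from the windows of members. The CArG box, to which SRF binds, was found in 0 of the 10 windows of members and in 1.16% of all windows. A match is a description of the letters and not a measured binding site.

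CCN1 and CCN2 are secreted matrix proteins that bind integrins, and both are immediate targets of YAP1 and TAZ. CCN1 had 459 and 457 reads in the controls against 338 and 225 in the NRP-1 libraries. The control libraries lay within 1 FPKM of each other, at 24.2 and 24.0 FPKM, and both NRP-1 libraries lay below them, at 17.6 and 11.6 FPKM. The log2 fold change of CCN1 was -0.76 (SE 0.21, edgeR adjusted p = 0.116), a difference that does not pass the threshold. Taken against the control mean in CPM, NRP-1 replicate 2 stood at 70.9% and replicate 3 at 47.1%. Leaving out NRP-1 replicate 2 moved the log2 fold change to -1.09, and leaving out replicate 3 moved it to -0.50. Over the fits of all 4 libraries the adjusted p lay between 0.0653 (DESeq2) and 0.201 (no filter on low counts). A fit without 1 NRP-1 library takes its spread from the close control libraries and assumes that the remaining NRP-1 library varies as they do. For single genes, only the log2 fold change of such a fit is given.

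CCN2 was far less abundant than CCN1, with 44 and 30 reads in the controls against 71 and 28 in the NRP-1 libraries. NRP-1 replicate 2 lay above both controls and NRP-1 replicate 3 below both. The exact Poisson 95% interval of the 71 reads, which covers counting error only, was 55.5 to 89.6, and that of the 28 reads was 18.6 to 40.5. For CCN2 the log2 fold change was 0.36 (SE 0.50, edgeR adjusted p = 0.71). Leaving out NRP-1 replicate 3 gave 0.88, and leaving out replicate 2 gave -0.47. The FPKM of CCN1 was 10.7 and 15.7 times that of CCN2 in control cells, and 4.89 and 8.29 times in BT-474 NRP-1 cells.

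ANKRD1 encodes a nuclear cofactor known from heart muscle and is among the most used YAP/TAZ readouts. It had 0 and 1 reads in the controls against 0 and 1 in the NRP-1 libraries. The upper end of the exact Poisson 95% interval of the mean count was 3.69 for 0 reads and 5.57 for 1 read. No fold change is given, and at this depth a difference in ANKRD1 was not detectable. ANKRD1 was thus near 0 in all 4 libraries. Its promoter window holds the GGAATG letters shown above, and a relation of these letters to RNA level was not tested.

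AMOTL2, an angiomotin-like scaffold of junctions and actin that binds YAP1 and is also a target of it, had the lowest log2 fold change of the 9 tested members. It had 732 and 805 reads in the controls against 500 and 331 in the NRP-1 libraries. In CPM this was 94.1 ± 5.50 (SD, n = 2) against 48.8 ± 14.1 (SD, n = 2), and both NRP-1 libraries lay below both controls. AMOTL2 thus had a log2 fold change of -0.95 (SE 0.21, edgeR adjusted p = 0.0802), which does not pass the threshold. DESeq2 gave an adjusted p of 0.00651 at a log2 fold change of -0.95 and called 2 of the 9 members, TEAD1 and AMOTL2, beside 6.67% of all genes tested. With NRP-1 replicate 2 left out the estimate came to -1.28, and with replicate 3 left out to -0.68. Over the fits of all 4 libraries the adjusted p of AMOTL2 lay between 0.00651 (DESeq2) and 0.158 (no filter on low counts). AMOTL2 and CCN1 shared the order of the NRP-1 libraries, with replicate 3 lower than replicate 2 by 0.60 and 0.59 on the log2 scale of CPM. Over genes above 10 CPM, the 95th percentile of the absolute difference between these replicates was 0.97.

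AJUBA is a LIM-domain scaffold that moves between junctions and the nucleus and holds back the LATS kinases. It had 319 and 410 reads in the controls against 498 and 524 in the NRP-1 libraries. The NRP-1 libraries were close to each other, at 15.3 and 15.1 FPKM, and lay above both controls, at 9.67 and 12.5 FPKM. AJUBA had a log2 fold change of 0.43 (SE 0.16, edgeR adjusted p = 0.192). Leaving out NRP-1 replicate 2 gave 0.45, and leaving out replicate 3 gave 0.39. The estimate was 0.27 without control replicate 1 and 0.61 without control replicate 2.

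**Figure D3:**
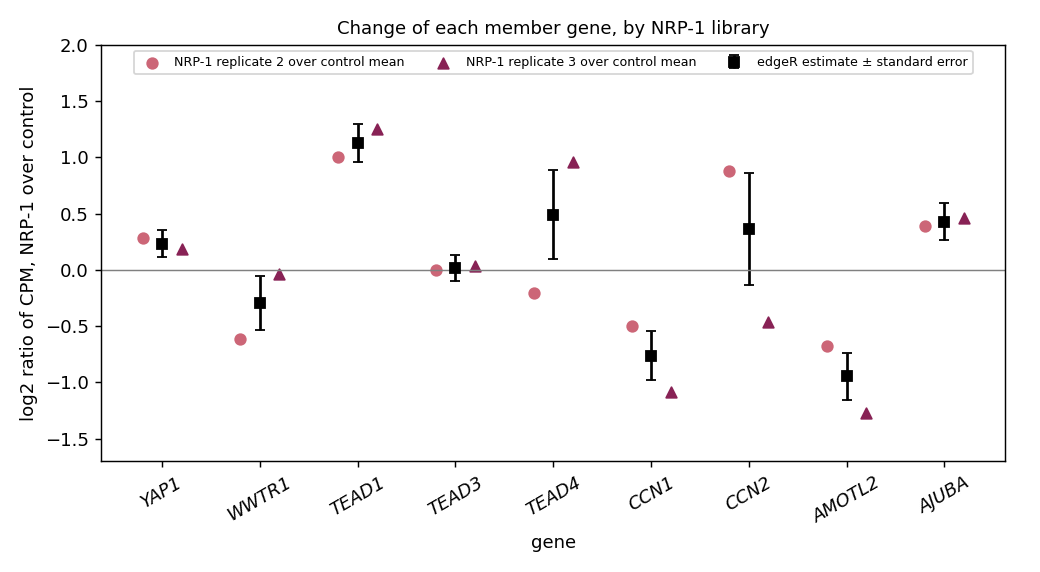
Log2 ratio of CPM, BT-474 NRP-1 over control (vertical axis), for the 9 tested genes. Circles and triangles are NRP-1 replicates 2 and 3 over the control mean, and squares with bars are the edgeR estimate and its standard error. The NRP-1 libraries fell on the same side of 0 except for TEAD4 (-0.20 and 0.95) and CCN2 (0.88 and -0.46).

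Ordered by mean FPKM, the control cells had YAP1 (36.8), CCN1 (24.1), TEAD3 (22.9), AMOTL2 (18.5), AJUBA (11.1), TEAD4 (7.70), WWTR1 (4.93), TEAD1 (2.33), CCN2 (1.9) and ANKRD1 (0.03). Of the neighbours in this order, the libraries of TEAD1 and CCN2 overlapped and those of the other pairs did not. In BT-474 NRP-1 cells the order was YAP1 (44.5), TEAD3 (23.7), AJUBA (15.2), CCN1 (14.6), TEAD4 (11.1), AMOTL2 (9.82), TEAD1 (5.22), WWTR1 (4.10), CCN2 (2.50) and ANKRD1 (0.03). CCN1, AMOTL2 and WWTR1 came lower and TEAD3, AJUBA, TEAD4 and TEAD1 higher in this order than in control cells, but the libraries of AJUBA and CCN1, of CCN1 and TEAD4, of TEAD4 and AMOTL2, of TEAD1 and WWTR1, and of WWTR1 and CCN2 overlapped.

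The Hippo kinases and their regulators act upstream of YAP1 and TAZ. All 16 genes of this list were tested and edgeR called 0, with 4 higher and 0 lower at an unadjusted p under 0.05, beside 10.8% and 12.1% of all genes. DESeq2 called 1, MAP4K4, beside 6.67% of all genes. In the list 13 log2 fold changes were above 0 and 3 below, with a median of 0.24, beside 7401 above and 6897 below among all genes tested. MAP4K4, a kinase that can activate LATS, had 479 and 589 reads in the controls against 890 and 931 in the NRP-1 libraries (log2 fold change 0.71, standard error 0.14, adjusted p = 0.0726 in edgeR and 0.0162 in DESeq2). TAOK2 (log2 fold change 0.53, adjusted p = 0.0821, edgeR) and TAOK1 (log2 fold change 0.39, adjusted p = 0.144, edgeR), kinases that activate MST, followed by p.

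Among 13 paralogs of the members and cofactors, 9 were tested and edgeR called 0, with 3 higher and 2 lower at an unadjusted p under 0.05 (10.8% and 12.1% of all genes), and DESeq2 called 0. Their median log2 fold change was -0.29, or 0.02 when NRP-1 replicate 3 was left out and -0.43 when replicate 2 was. AMOTL1, a paralog of AMOTL2, lay above both controls in both NRP-1 libraries, with 272 and 310 reads against 432 and 550 (log2 fold change 0.70, standard error 0.17, adjusted p = 0.0942, edgeR). AMOT, the founding member of that family, also lay above its controls (log2 fold change 0.53, adjusted p = 0.153, edgeR). These angiomotins thus stood on the side opposite to AMOTL2. VGLL4 competes with YAP1 for TEAD factors and lay below both controls, at -0.40 on the log2 scale (adjusted p = 0.127, edgeR). CCN5, a CCN protein that lacks the C-terminal domain of its relatives, was chosen after its values were seen, and had 81 and 84 reads in the controls against 50 and 20 in the NRP-1 libraries (log2 fold change -1.29, standard error 0.43, adjusted p = 0.156, edgeR). VGLL1 and CCN6 had at most 3 reads in each library.

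A further list held 18 genes known as YAP/TAZ targets in many cell types. It shared LATS2 and PTPN14 with the Hippo kinase list. Of these 14 were tested and edgeR called 0, with 4 higher and 1 lower at an unadjusted p under 0.05 (10.8% and 12.1% of all genes). Here 12 log2 fold changes were above 0 and 2 below, with a median of 0.24, against 7401 and 6897 over all genes tested. DESeq2 called 3, beside 6.67% of all genes, of which ASAP1 and MYOF were higher and GADD45A lower. ASAP1, an ARF GTPase-activating protein of focal adhesions, had 559 and 587 reads in the controls against 898 and 1079 in the NRP-1 libraries (log2 fold change 0.73, standard error 0.14, adjusted p = 0.068 in edgeR and 0.0113 in DESeq2). MYOF, a membrane repair protein, stood at 0.61 on the log2 scale (adjusted p = 0.0826 in edgeR and 0.0461 in DESeq2). GADD45A, a growth arrest gene that p53 and stress signals also induce, had 420 and 452 reads against 237 and 132 (log2 fold change -1.30, standard error 0.28, adjusted p = 0.0761 in edgeR and 0.00146 in DESeq2). FOXF2, CCDC80 and RBMS3 had at most 3 reads in each library.

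Of 14 junction and polarity genes, through which density is sensed, 12 were tested and edgeR and DESeq2 each called 0, with 0 at an unadjusted p under 0.05 in edgeR. Of all genes tested, edgeR called 1.09% and DESeq2 6.67%, and 22.9% had an unadjusted p under 0.05 in edgeR. Their log2 fold changes lay between -0.15 and 0.23, with a median of 0.11. The lowest p-values were those of PALS1 (log2 fold change 0.23, adjusted p = 0.339, edgeR), LLGL2 (0.19, adjusted p = 0.391, edgeR) and CTNNB1 (0.21, adjusted p = 0.428, edgeR). Of 14 genes of the SRF and MRTF program, which also drives CCN1 and CCN2, 10 were tested and edgeR called 0. In this list 1 higher and 1 lower gene had an unadjusted p under 0.05, beside 10.8% and 12.1% of all genes. The median log2 fold change was 0.20. VCL (vinculin) had 703 and 727 reads in the controls against 1086 and 1108 in the NRP-1 libraries (log2 fold change 0.56, standard error 0.11, adjusted p = 0.0742 in edgeR), and was the 1 gene of the list that DESeq2 called (adjusted p = 0.0459). FHL2, a LIM-only cofactor, stood at -0.75 on the log2 scale (adjusted p = 0.135, edgeR) and TPM1 (tropomyosin 1) at 0.41 (adjusted p = 0.234, edgeR). The smooth muscle genes ACTA2, CNN1, MYL9 and TPM2 had at most 3 reads in each library.

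**Figure D4:**
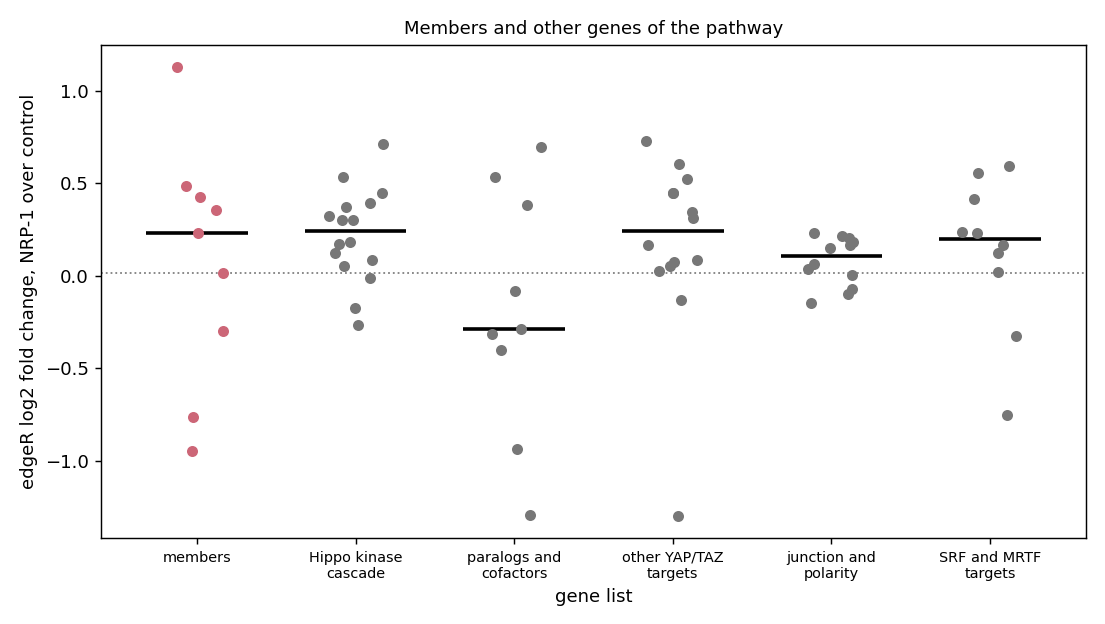
Log2 fold change from edgeR, BT-474 NRP-1 over control (vertical axis), of each tested gene in the member list and in 5 lists of the pathway (horizontal axis). Points are genes, black bars are list medians and the dotted line is the median of all genes tested, 0.02. The medians lie between -0.29 and 0.24, and the members run from -0.95 (AMOTL2) to 1.13 (TEAD1).

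Of all genes tested, those whose profile over the 4 libraries lay nearest to that of TEAD1 were HRAS, CXCL17, DNAAF3, MIR4741 and CRACR2A, by the root mean square difference of log2(CPM + 1) after each gene was centred on its own mean. The difference was 0.014 for HRAS, at 11.3 and 13.0 CPM in the controls and 25.2 and 30.1 CPM in the NRP-1 libraries, and 0.035 for CXCL17. It lay between 0.055 and 0.07 for the other 3. This ranking rests on 4 libraries, and MIR4741 had at most 1.53 CPM.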

How the data were processed

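RNA of wild-type and NRP-1 overexpressing BT-474 was sequenced after oligo(dT) enrichment in 2 libraries per group. Per the labels, the submitters' processing notes name HISAT2 2.0.1, Bowtie2 2.2.5 and RSEM, and the builds GRCh38 and hg19 without a role. For each library the authors deposited RSEM expected counts, not normalized, of which 32.4% to 32.9% were not whole, and an FPKM value to 2 decimals. Genes not listed in a library were set to 0 reads. Columns of the authors' own comparison (mean FPKM, log2 ratio and a probability) were not used. Of the gene IDs, 99.4% were paired with a symbol through the RefSeq gene table (GRCh38.p14).

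After rounding to whole numbers, the main test was the quasi-likelihood F-test of edgeR 4.0.16 (R 4.3.3), after filterByExpr and TMM scaling, with group as the only term and p-values adjusted over 14298 genes. TMM factors lay between 0.986 and 1.01. CPM are TMM-normalized. Standard errors were taken as |log2 fold change| over the root of F. Alternatives were DESeq2 1.42.0, limma 3.58.1 with a pseudocount of 1 or 0.1 FPKM (log2 scale, mean FPKM of 0.5 or more), library sizes without TMM, DESeq2 size factors in edgeR, no filter, a mean of at least 10 reads, and each library left out. The tests were checked on simulated data. The members and lists were chosen with earlier results of these data known, and the lists of the pathway were written by hand. Named from each list are the genes called or else the 3 with the lowest p, the genes with at most 3 reads in each library, and the 5 genes nearest in profile to the member with the lowest p. TEAD2, CCN5 and the cell type markers were named outside this rule, after their values were seen. The markers named are ERBB2, KRT8, KRT18, KRT19, GATA3, ESR1, PGR, EPCAM, KRT14, PDGFRB, DCN and COL1A1. LATS2 and PTPN14 are named only because they are in more than 1 list. Intervals cover counting error only.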

Additional observations from a re-analysis of the deposited data

How the results depend on the processing

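The main edgeR test called 156 genes (3268 at an unadjusted p under 0.05), whereas DESeq2 called 954, edgeR without a filter on low counts 0 (3297 at an unadjusted p under 0.05), limma on log2(FPKM + 1) 7 and limma on log2(FPKM + 0.1) 3. Leaving out single libraries, the count ran from 0 without either control (782 at an unadjusted p under 0.05 without control replicate 1 and 1181 without control replicate 2) to 5414 without NRP-1 replicate 2, with 4159 without NRP-1 replicate 3. The remaining library of the reduced group is assumed in these fits to vary like the other group. Of the members, where edgeR called 1, DESeq2 called 2 and the fit without a filter and both limma fits 0. For the Hippo kinase list DESeq2 called 1 against 0, for the other YAP/TAZ targets 3 against 0, and for the SRF and MRTF targets 1 against 0. With a library left out, from 0 to 7 Hippo kinases, 0 to 6 paralogs and cofactors, 0 to 7 other targets, 0 to 3 junction and polarity genes and 0 to 4 SRF and MRTF targets were called, each above 0 only without an NRP-1 library. The cause of these differences was not tested. Unscaled library sizes gave 154 genes, DESeq2 size factors 163 and a filter at a mean of 10 reads 165, with the same count of members, 1.

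Across the 9 tested members and the alternatives, 81 log2 fold changes stayed as in the main test in sign and call, 5 lost the call, 11 gained one and 2 had the opposite sign. Of the gained calls, only that of AMOTL2 with DESeq2 came from all 4 libraries, and the others from fits without an NRP-1 library. The lost calls were all of TEAD1. The opposite signs were those of TEAD4 without NRP-1 replicate 3 (-0.20, against 0.94 without NRP-1 replicate 2) and of CCN2 without NRP-1 replicate 2 (-0.47, against 0.88 without NRP-1 replicate 3). No paired analysis was possible because the groups share only replicate number 2 in the labels. Counts of reads under 100, as for CCN2, and the near absence of ANKRD1 limit what this depth can show.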
